A study of Mus musculus with 6 samples.

Results

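Angptl4, Angpt1 and Vegfd are 3 genes for secreted proteins known from the control of blood and lymphatic vessels, and they were taken by symbol from a table of 581 mouse genes. All 3 symbols were found, once each. The table holds normalised read counts from NIH-3T3 cells, an immortalised line of mouse embryo fibroblasts labelled wild type, in 3 libraries from standard plates and 3 from the Nanopore #3 scaffold. Both groups shared DMEM with 10% fetal bovine serum and 1% streptomycin and penicillin at 37 °C and 5% CO2, so they differed, as far as the labels say, in the culture surface alone. The question the series states is how the scaffold affects gene expression in fibroblasts. The labels do not give the material of the scaffold, the time in culture or whether libraries of a group came from separate cultures, so the spread within a group may be technical. The line is a single established line without endothelial cells, so the ligands were measured without the vessels on which they act.

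The authors had chosen the 581 genes as differentially expressed between the same 6 libraries, and the 3 genes were picked from them with their changes known. Their differences between plates and scaffold are therefore given as a description, with no test. In limma, 579 of the 581 genes (99.7%) had an adjusted p under 0.05, 187 of them higher on the scaffold (32.2% of the genes tested) and 392 lower (67.5%), so passing that test sets no gene of the table apart.

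Angiopoietins are ligands of the receptor tyrosine kinase Tie2, encoded by Tek, which is found mainly on endothelial cells. Angiopoietin-1, the product of Angpt1, is made by cells around the vessel, fibroblasts and pericytes among them, and activates Tie2, which stabilises the vessel wall. Angiopoietin-like proteins share the coiled-coil and fibrinogen-like architecture of the angiopoietins but do not bind Tie2. Angptl4 is best known as an inhibitor of lipoprotein lipase, and its gene is a known target of PPAR nuclear receptors, of hypoxia-inducible factors and of the glucocorticoid receptor. Vegfd encodes a ligand of the VEGF receptors Flt4 and, in humans, also KDR. It acts mainly on lymphatic vessels and was first described as a growth factor induced by the transcription factor c-Fos in mouse fibroblasts.

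Angptl4 (ENSMUSG00000002289) lies on the minus strand of chromosome 17, from 33773750 to 33781575, Angpt1 (ENSMUSG00000022309) on the minus strand of chromosome 15, from 42424723 to 42676977, and Vegfd (ENSMUSG00000031380) on the plus strand of chromosome X, from 164373378 to 164402650. These are the positions of the table, given as GRCm38 coordinates. In GENCODE M21 the longest exon counts per transcript are 7 for Angptl4, 9 for Angpt1 and 7 for Vegfd. By the positions of the table, Angpt1 spans 252 kb against 7.83 kb for Angptl4 and 29.3 kb for Vegfd. GENCODE M21 has the same positions for Angpt1 and Vegfd, but ends Angptl4 at 33781830 and gives it 3541 exon bases, where the table lists a length of 3286. Of the 5205 exon bases of Angpt1, 737 (14.2%) are shared with the antisense gene Gm17473 on the opposite strand. The labels do not say that counting used strand, so reads on that stretch cannot be assigned with certainty. The exons of Angptl4 and Vegfd share no base with another annotated gene.

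Of the 3 genes, only Vegfd had an entry in the RefSeq promoter table (GRCm38.p6, 1 of 3 symbols matched). Its window runs from 250 bases before to 50 bases after the RefSeq start at 164373522, which is 144 bases downstream of the gene start listed in the deposited table. The 106 bases of the window that lie upstream of both starts, chrX:164373272-164373377 on the plus strand, are printed because Vegfd is the gene known as a c-Fos target, and they would carry in capitals any match to the motifs searched.

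Vegfd upstream: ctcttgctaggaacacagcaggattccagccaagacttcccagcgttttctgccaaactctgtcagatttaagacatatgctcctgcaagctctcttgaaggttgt

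No capitals appear. The whole window of 300 bases held no match, on either strand, to the AP-1 site TGAGTCA, which 5.20% of the 32851 promoters in the table hold. It held none to the EGR site GCGTGGGCG (0.612% of promoters) or to the PPAR direct repeat, 2 copies of AGGTCA with 1 base between them (0.0396%). The hypoxia response cores ACGTG (19.6%) and GCGTG (32.4%), of which the second overlaps the EGR site, and the TEAD site GGAATG (14.7%) were also without a match. This says only that these letters are not in this window.

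Angptl4 was the abundant and increasing member. Its normalised read counts were 2982, 2888 and 2920 in plate replicates 1 to 3, and 14724, 16166 and 15842 in scaffold replicates 1 to 3. All 3 scaffold libraries lay far above all 3 plate libraries, and the lowest scaffold library was scaffold replicate 1. The group means were 2930 ± 47.5 and 15577 ± 756 (SD, n = 3 each), a ratio of 5.32 and a difference of 2.41 in log2(value + 1) (SE 0.0563). The 9 pairs of 1 scaffold and 1 plate library gave log2 differences from 2.30 to 2.48. A larger log2 increase was found in 18 of the 189 genes that rose, called or not.

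Angpt1 was lower on the scaffold. Its normalised read counts were 342, 343 and 354 on plates, against 162, 136 and 118 on the scaffold, in the order of the replicate numbers. No scaffold library reached the lowest plate library, and the scaffold libraries were spread more widely than the plate libraries. The means were 346 ± 6.76 and 139 ± 22.5, so the plate level was 2.50 times the scaffold level, and the log2 fold change was -1.33 (SE 0.140). The log2 differences between single libraries ran from -1.58 to -1.07. A larger log2 decrease was found in 206 of the 392 lower genes.

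Vegfd was lower on the scaffold by a similar amount. It had normalised read counts of 410, 418 and 429 on plates, against 204, 204 and 168 on the scaffold. The groups did not overlap, and scaffold replicate 3 was the lowest library. The means were 419 ± 9.64 and 192 ± 20.6, with a plate level 2.18 times the scaffold level and a log2 fold change of -1.13 (SE 0.118). The largest log2 difference between single libraries was -1.35, with scaffold replicate 3. Of the lower genes, 311 had a larger decrease. Groups without overlap were the rule in this table, in 573 of the 581 genes (98.6%).

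**Figure D1:**
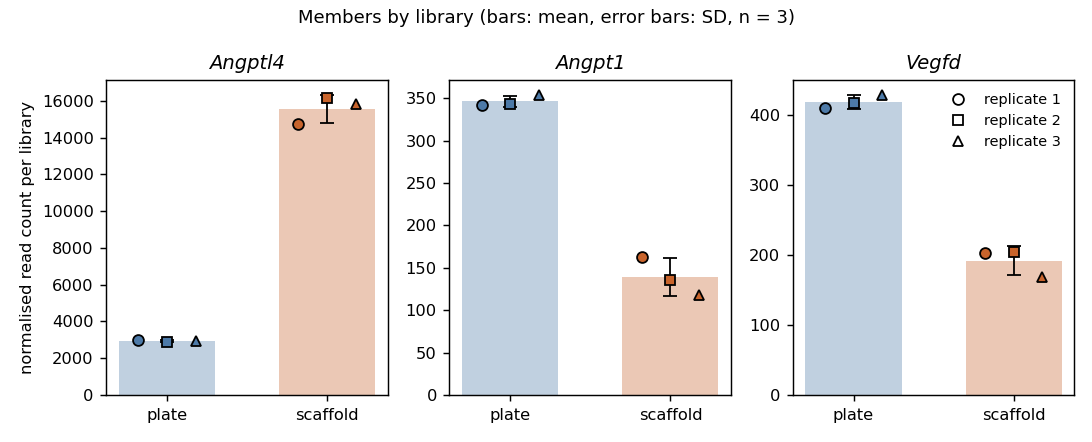
Normalised read count of Angptl4, Angpt1 and Vegfd in each of the 6 libraries (y axes linear from 0, a separate scale per gene). Symbols are replicates, bars are group means and error bars are SD with n = 3. Angptl4 goes from a mean of 2930 on plates to 15577 on the scaffold, Angpt1 from 346 to 139 and Vegfd from 419 to 192, with no overlap of the groups.

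The values are not corrected for gene length, so levels of different genes were compared per kilobase of the length listed in the table (3.286, 5.205 and 2.408 kb for Angptl4, Angpt1 and Vegfd). Per kilobase, Angptl4 had the highest level on plates, 892 ± 14.4 normalised reads, followed by Vegfd with 174 ± 4.01 and Angpt1 with 66.5 ± 1.30. On the scaffold the order was the same, with 4741 ± 230, 79.8 ± 8.57 and 26.6 ± 4.32. Neighbours in this order were separated by more than their spread in both groups.

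The distances between the members widened on the scaffold. Per kilobase, the ratio of Angptl4 to Angpt1 within a library was 13.8, 13.4 and 13.1 on plates, against 144, 189 and 213 on the scaffold. The ratio of Angptl4 to Vegfd went from 5.13 ± 0.179 to 60.0 ± 8.19. The ratio of Vegfd to Angpt1 was 2.59, 2.64 and 2.62 on plates, against 2.71, 3.26 and 3.09 on the scaffold. All 3 scaffold values were thus above the plate values, with that of scaffold replicate 1 close to them. Ratios within a library do not change when a library is multiplied by a factor, as in the deposited scaling or equal medians, but they do change under quantile normalisation. With 3 libraries in each group an exact permutation test has 0.1 as its smallest p, and none was run on ratios of genes chosen for their changes.

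Among the 581 genes, uncorrected for length, Angptl4 moved from rank 17 or 18 in each plate library to rank 2 or 3 in each scaffold library. Its share of the normalised total of the table went from between 1.06% and 1.11% on plates to between 4.96% and 5.54% on the scaffold. The mean total of the table was 20352 higher on the scaffold, and the mean of Angptl4 was 12647 higher. The first difference is a net of rises and falls, with Ptgs2 going from 4345 to 15706 and Col1a2 from 38736 to 18500. Angpt1 went from ranks between 110 and 114 to ranks between 155 and 163, and Vegfd from ranks between 97 and 100 to ranks between 138 and 147.

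**Figure D2:**
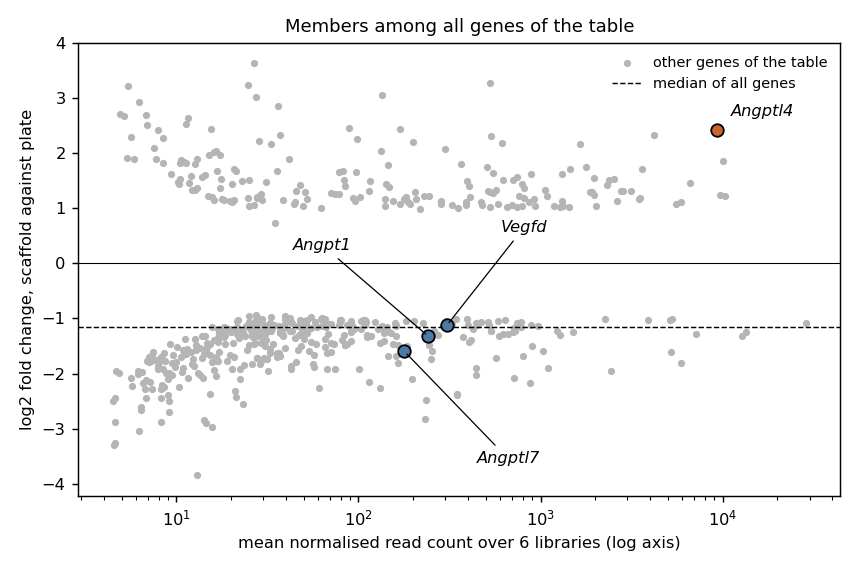
Log2 fold change of scaffold against plate (y) plotted over the mean normalised read count of the 6 libraries (x, log axis) for all 581 genes, with the 3 members and Angptl7 marked and the median of all genes as a dashed line at -1.16. Angptl4 stands at 2.41 among the most abundant genes, while Angpt1 and Vegfd lie near the dashed line.

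Read depth differed between the members. Before scaling, Angptl4 had 2807 to 3243 reads per plate library and 14319 and 15263 reads in scaffold replicates 1 and 2. Angpt1 had 333 to 372 and 158 and 128 reads, and Vegfd had 406 to 451 and 198 and 193. Scaffold replicate 3 was left out of the read numbers by choice. Its values too were whole multiples of its scaling step (0.990), within 0.01 read. Over all genes of the table the 5 counted libraries held 264178 to 293198 reads, and the 6 size factors ran from 0.944 to 1.09.

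On plates the 3 members varied little between libraries. The coefficient of variation was 1.62% for Angptl4, 1.95% for Angpt1 and 2.30% for Vegfd, below the 1.81%, 5.28% and 4.80% that counting error alone gives at these read numbers. The median over all genes of the table was 14.0% on plates and 21.2% on the scaffold. The median gene had a mean value of only 42.5, well below the members, so its counting error is larger. On the scaffold the members varied by 4.86%, 16.2% and 10.7% over 3 libraries. Their counting error, from the reads of scaffold replicates 1 and 2 alone, was 0.822%, 8.36% and 7.15%. The plate libraries were not copies of each other. Over the genes with at least 10 reads, their pairs differed by chi-square values of 1.93 to 2.55 per gene, where sampling noise gives about 1. Scaffold replicates 1 and 2 differed by 8.51. In that scaffold pair the value was 64.5 for Angptl4, 2.32 for Angpt1 and 0.00156 for Vegfd, so the wider scaffold spread of Vegfd came with replicate 3.

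Scaffold replicate 1 stood nearest to the plates in the table as a whole. On the first principal component of all 581 genes (85.6% of the variance) it lay at 15.25, with scaffold replicates 2 and 3 at 19.89 and 23.01 and the plate libraries between -20.56 and -18.65. It was the scaffold library nearest to the plate mean in 331 of the 581 genes (57.0%). It was the nearest for Angptl4, at a log2 difference of 2.33, and for Angpt1, at -1.09. For Vegfd, scaffold replicates 1 and 2 were level at -1.04 and -1.03, and scaffold replicate 3 was at -1.31. Without scaffold replicate 1 the log2 fold changes were 2.45, -1.45 and -1.17 for Angptl4, Angpt1 and Vegfd.

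The level of the decreases depended on the scaling. Most genes of the table fell, and the median log2 fold change over all 581 was -1.16. In every gene the group means differed by at least 0.997 on the log2 scale, up or down. The median of all genes therefore lies within the larger, lower group. The 392 lower genes had a median of -1.38, and the 189 genes that rose, called or not, had 1.39. Rescaling the libraries to equal medians over the table moved the median of all 581 genes by 0.74, and quantile normalisation moved it by 0.63. Of the called genes, those lower on the scaffold made up 67.7% as deposited and 52.4% and 52.9% after the respective rescaling. Relative to the median of the table, Angptl4 lay 3.57 higher on the log2 scale as deposited, 3.60 after equal medians and 2.85 after quantile normalisation. Angpt1 lay at -0.16, -0.14 and -0.53 relative to that median, and Vegfd at 0.04, 0.06 and -0.44. Angpt1 and Vegfd thus lay close to the median of the table as deposited and after equal medians, and below it after quantile normalisation. As deposited, both decreases were smaller than the median of the lower genes alone. Both rescalings use selected genes alone and cannot test the deposited scaling. No rescaling changed the sign of a member's log2 fold change.

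**Figure D3:**
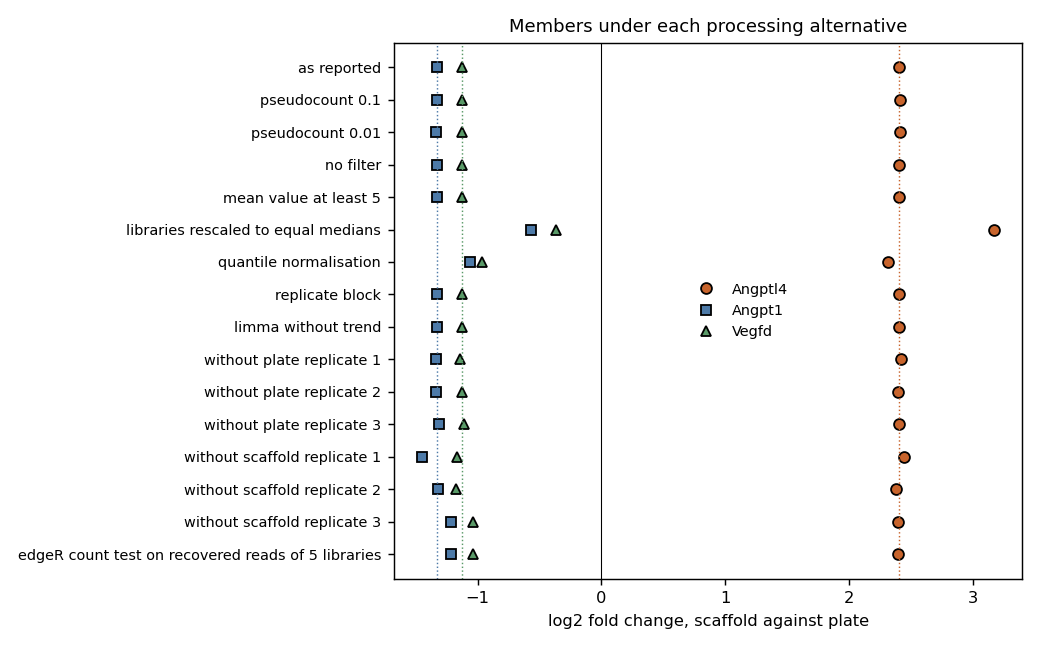
Log2 fold change of scaffold against plate (x) of Angptl4, Angpt1 and Vegfd as reported and under each of 15 processing alternatives (y), with dotted lines at the values as reported. Rescaling to equal medians gives 3.17, -0.57 and -0.37, and no symbol crosses 0.

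Another gene of the family, Angptl7, was also in the table and went the opposite way to Angptl4. Angptl7 (chromosome 4, 148495183 to 148500460) encodes an angiopoietin-like protein best known from the eye, where it takes part in the outflow tissue that sets eye pressure in humans. Its normalised read counts were 261, 278 and 265 on plates, against 119, 80.5 and 70.3 on the scaffold. The groups did not overlap, and scaffold replicate 1 was again nearest to the plates. Its log2 fold change was -1.60 (SE 0.192), from -0.84 after equal medians to -1.82 without scaffold replicate 1. Of the 8 symbols on the angiopoietin-like list, Angptl4 and Angptl7 were the 2 in the table, 1 higher and 1 lower. Of all genes tested, 32.2% were called higher and 67.5% lower.

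The receptors and sister ligands of the members were not among the selected genes. Of 7 symbols for angiopoietins, the Tie receptors and their partners, Angpt1 alone was in the table, and of 11 for VEGF ligands and receptors, Vegfd alone. Other genes than the 581 were not analysed here, and no level can be given for Tek, Flt4, Vegfa or Vegfc.

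Genes whose products act on the members' proteins or on the same substrates were present in small numbers. From the lipoprotein lipase list of 16 symbols, 1 was in the table. It was Lipg, the endothelial lipase that cleaves phospholipids of high density lipoproteins, which rose from 302, 322 and 335 on plates to 731, 806 and 778 on the scaffold (log2 fold change 1.27, SE 0.0954). From the list of 16 for the proteolytic processing of VEGF-C and VEGF-D, 3 were present, 2 higher and 1 lower. Over all genes tested, 32.2% were called higher and 67.5% lower. VEGF-D is released from its propeptides by plasmin and by proprotein convertases. Plau, which activates plasminogen, rose by 2.18 on the log2 scale (SE 0.105), and its receptor gene Plaur by 1.52 (SE 0.0726). Adamts2, a procollagen proteinase related to the VEGF-C activating Adamts3, went from 591 ± 2.21 to 261 ± 57.2 (log2 fold change -1.20). The list's median log2 fold change was 1.52, beside -1.16 over all genes tested.

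Lists of genes that share a known regulator with Angptl4 had few genes in the table. The AP-1 and EGR list and the YAP and TEAD list, given after them, do not include Angptl4. Of 42 hypoxia-inducible factor targets, Angptl4 and Car9 were in the table, 1 higher and 1 lower, beside 32.2% and 67.5% of all genes tested. Car9, a membrane carbonic anhydrase widely used as a hypoxia marker, fell from 23.0, 25.7 and 12.4 on plates to 3.08, 5.30 and 5.94 on the scaffold (log2 fold change -1.86, SE 0.390). The values are a few reads per scaffold library, and 9.29% of its exon bases are shared with the opposite-strand gene Gm12454. Of 30 PPAR targets and 14 glucocorticoid targets, Angptl4 was the single gene present, and no other gene of these lists was among those the authors selected. Of 13 AP-1 and EGR transcription factor genes, 4 were in the table, namely Fosb, Egr1, Egr2 and Egr3. All 4 rose, with a median log2 fold change of 1.78. Over all genes tested, 32.2% were called higher and the median was -1.16. Fosb, a Fos family member and partner of Jun proteins, had 55.2, 57.6 and 69.5 normalised reads on plates, against 190, 151 and 174 on the scaffold. It was thus higher in every scaffold library, and a link with the lower Vegfd was not tested. The log2 increases were 3.26 for Egr1, 2.08 for Egr3 and 1.17 for Egr2. None of 14 YAP and TEAD targets was in the table.

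Other angiogenic factors moved in both directions. Of 40 symbols, 7 were present, 5 higher and 2 lower, with a median log2 fold change of 1.13. Among all genes tested, 32.2% were called higher and the median was -1.16. Ptgs2, the inducible cyclooxygenase of prostaglandin synthesis, had the largest increase of the list at 1.85 (SE 0.0532). The EGF receptor ligand genes Hbegf and Ereg followed at 1.74 and 1.61. Thbs1, the angiogenesis inhibitor thrombospondin-1, fell by 1.28 on the log2 scale. The chemokine gene Cxcl12, named after its values were seen because its call was not stable, went from 35.4 ± 1.91 to 15.1 ± 1.80, a call that was lost after either rescaling (log2 fold change -1.19, and -0.46 after each).

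Markers of other cell types could be checked only in part. None of 18 endothelial, 10 adipocyte and 8 macrophage markers was among the genes analysed here. Of 12 pericyte and smooth muscle markers, Acta2 and Notch3 were present, and both were lower as deposited, as were 67.5% of all genes tested. The summed level of Acta2 and Notch3 was 158 to 200 on plates and 53.5 to 106 on the scaffold. The log2 fold change of Notch3 was -2.09, but -1.34 when scaffold replicate 3 was left out and -1.37 by edgeR, and its call was lost after quantile normalisation. That of Acta2 was lost after equal medians, where its log2 fold change went from -1.09 to -0.33. Of 10 fibroblast markers, Col1a1 and Col1a2 were present at a summed level of 56194 to 57427 on plates and 23212 to 30363 on the scaffold. The call of Col1a2 was lost after quantile normalisation, which gives a gene of unchanged rank the same value in every library. Col1a2 kept its rank, so that loss was fixed by the method and says nothing about its fall. After equal medians Col1a2 was still called, at a log2 fold change of -0.31. In bulk RNA, fewer cells of a type and less RNA per cell cannot be told apart, and the part of these marker changes in the members' values was not tested.

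**Figure D4:**
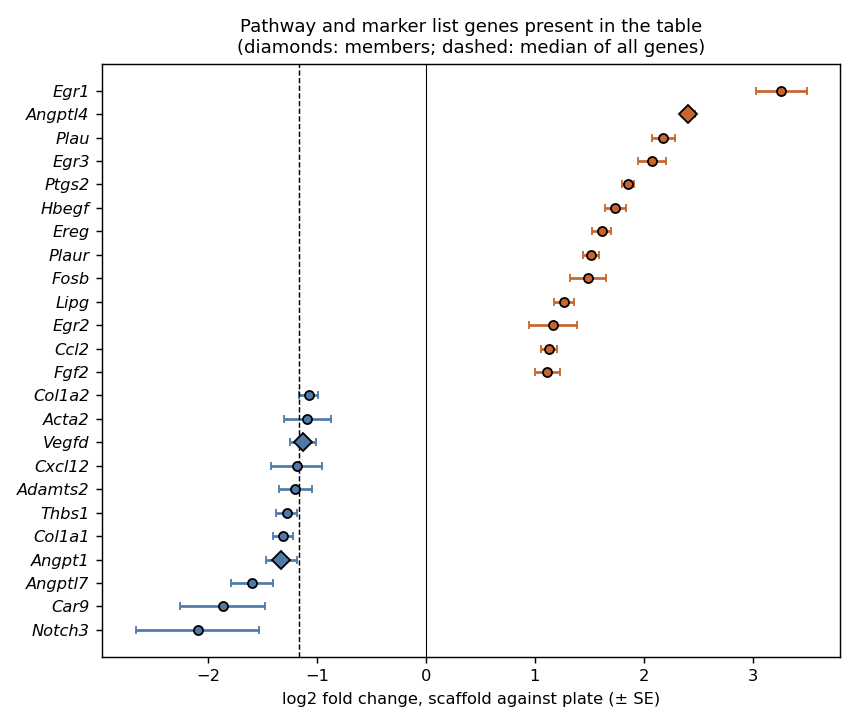
Log2 fold change of scaffold against plate with its SE (x) for the 24 genes of the pathway and marker lists that were in the table, sorted by size, with the members as diamonds and the median of all 581 genes as a dashed line. Of the 24 genes, 13 are higher and 11 lower, where 32.2% of all genes tested were called higher and 67.5% lower. Angptl4 at 2.41 is exceeded by Egr1 at 3.26.

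The genes closest in profile were found by the root mean square difference of log2(value + 1) over the 6 libraries, after subtracting each gene's plate mean. The nearest to Angptl4 were Sema7a, a membrane-anchored semaphorin (0.0696), Kcnh2, a potassium channel (0.0860), and Dusp5, which dephosphorylates ERK in the nucleus (0.176). Sema7a went from 1402 ± 38.9 to 7046 ± 452 and Kcnh2 from 179 ± 6.97 to 891 ± 25.8. Of the exon bases of Dusp5, 22.1% are shared with an opposite-strand gene.

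Nearest to Angpt1 were Col1a1, a chain of type I collagen (0.0482), Ephx1, the microsomal epoxide hydrolase (0.0675), and Fam43a (0.0707). Col1a1 had values of 8707, 6886 and 6607 in scaffold replicates 1 to 3, so that, as for Angpt1, replicate 1 was the highest and replicate 3 the lowest. Nearest to Vegfd were Aqp1, a water channel (0.0418), Nfatc4, a calcineurin-regulated transcription factor (0.0735), and Zfp354c (0.0803). Aqp1 went from 1341 ± 73.0 to 607 ± 61.5. These distances describe likeness over 6 libraries that share the same contrast.

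**Figure D5:**
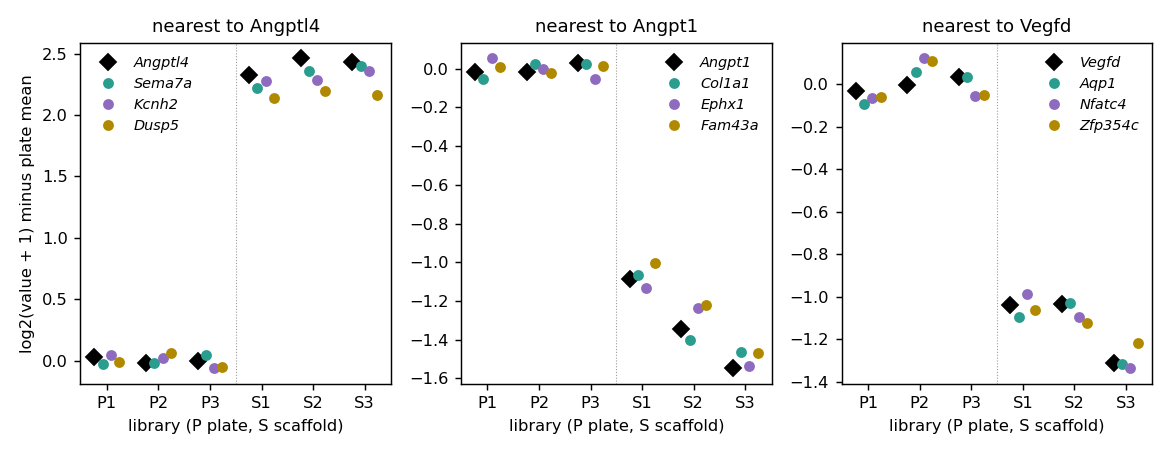
Log2(value + 1) minus the plate mean of each gene (y) in the 3 plate and 3 scaffold libraries (x) for each member (diamonds) and the 3 genes nearest to it (circles). In scaffold replicate 3, Angpt1 and Vegfd have their lowest values, at -1.55 and -1.31.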

How the data were processed

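The authors deposited 1 table of plate and 1 of scaffold values for the same 581 genes. The build GRCm39 and the tools DESeq2, HTSeq, HISAT2 and fastp are named, per the submitters' processing notes, with no role or version given. Each deposited value is a signal, the reads of a gene scaled by the size factor of its library: although the tables are named FPKM, 100% of values were whole multiples of 1 step per library, within 0.01 read. The deposited tables also list each gene's length, the other value used here. Of the 581 positions, 555 equalled those of GENCODE M21 (GRCm38) at both ends.

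Values on the log2(value + 1) scale were fitted with limma 3.58.1 in R 4.3.3 (intensity trend, two-sided, Benjamini-Hochberg adjustment over the whole table, threshold 0.05, mean value of at least 0.5, which removed no gene). The design had been written for normalised values and was kept. Reads of 5 libraries entered a count test in edgeR 4.0.16 as an alternative. The fit was tested on simulated data. Named genes were the 3 members, up to 4 genes per list with the largest change, and the 3 nearest profiles per member among genes with established symbols. Cxcl12 and the chromosomal neighbours of the members were named after their values were seen. The members and lists were chosen with earlier results of these data known.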

Additional observations from a re-analysis of the deposited data

How the results depend on the processing

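Each member's log2 fold change was recomputed under 15 alternatives and kept its direction in all of them. Of these, removing the filter, a minimum mean of 5, the replicate block and limma without trend left each estimate unchanged by construction. The authors had also selected the genes for their difference between the same libraries. Equal medians gave 3.17 for Angptl4, -0.57 for Angpt1 and -0.37 for Vegfd, and quantile normalisation gave 2.32, -1.06 and -0.97. These 2 rescalings alone moved a member by more than the replicate SD, by construction of the scaling. Leaving out each library gave ranges of 2.38 to 2.45 for Angptl4, -1.45 to -1.22 for Angpt1 and -1.17 to -1.03 for Vegfd. The edgeR count test on 5 libraries, without scaffold replicate 3, gave 2.40, -1.21 and -1.04.

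Over the whole table the number of genes past the threshold was 579, with 397 after equal medians and 397 after quantile normalisation. The count of list genes called was 24, and 22 after equal medians. With the replicate number as a block the table's count was 580 and the members' log2 fold changes were 2.41, -1.33 and -1.13. Deviations of same-numbered plate and scaffold libraries correlated at -0.03, 0.07 and 0.06, and not every library correlated best with its own number. Values this small cannot tell whether the replicate numbers paired the samples. At 128 to 158 scaffold reads per counted library, Angpt1 is the member whose level is least precise.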

Other observations

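The neighbourhood of Angptl4 on chromosome 17 held 4 other genes of the table within 1 Mb, looked up after their values were seen. Kank3, the nearest at 28.9 kb and a member of the KANK family of cytoskeletal adaptor proteins, rose from 609 ± 13.6 on plates to 1250 ± 88.7 on the scaffold (log2 fold change 1.03, SE 0.0863). The other 3 fell. Psmb9 and Tap1, which serve antigen processing, went from 73.7 ± 5.98 to 30.9 ± 8.84 and from 245 ± 22.0 to 119 ± 12.5, and Zfp811, a zinc finger gene, from 25.0 ± 4.04 to 9.51 ± 2.84. Angpt1 and Vegfd had no gene of the table within 1 Mb. Their nearest, also looked up afterwards, were 4525 kb and 2804 kb away, the latter being Tmsb4x, the actin-sequestering thymosin beta-4 gene, with a log2 fold change of 1.22.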
